A study of Homo sapiens with 46 samples.

Results

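The Lamin B1 degron line of DLD-1 cells was compared with the untagged parental line before any auxin was given. DLD-1 is an established, adherent human colorectal adenocarcinoma line. In the degron line (LB1-AID, called LB1 below) the endogenous Lamin B1 carries an auxin-inducible degron at its N-terminal end, whereas the parental line (WT) carries no tag. The comparison took every library of these lines labelled 0 h, which are 3 of LB1 and 4 of the parental line, or 7 of the 46 libraries of the series. The other libraries came from the same cells after 16 or 96 h with 1 mM auxin, and from lines with the degron on Lamin A/C (LAC) or Lamin B2 (LB2). Each replicate was a well of a culture plate, and nothing says that the wells were seeded from separate cultures, so p-values measure the spread between wells. The labels do not say whether LB1 is a single clone, how long it was kept apart from the parental line, or whether cells at 0 h received the solvent of auxin. The tag and every other difference between these lines cannot be told apart in this comparison.

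Lamins are the intermediate filament proteins of the nuclear lamina, the meshwork under the inner nuclear membrane. Lamin B1 and Lamin B2 keep a lipid anchor and stay at the membrane, while most Lamin A/C is freed of its anchor. The lamina is known for holding gene-poor, weakly transcribed chromatin at the nuclear edge. A degron lets the ubiquitin ligase of plant auxin signalling destroy the tagged protein once auxin is present, so the 0 h samples show the line with its tagged protein before that trigger. Protein was not analysed here.

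The libraries were made from total RNA after removal of ribosomal RNA. Those of the parental line held 3770140 to 11696867 counts, and those of LB1 held 19352004, 1452968 and 10539764. Replicate 2 of LB1 was thus the shallowest, and counts of calls are also given without it. No pair of replicates agreed within counting noise, so each was counted as a sample. Levels are given as CPM, the share of a library's counts scaled to 1000000 after TMM normalization, which does not correct for gene length. The colon epithelial markers summed to 7629 to 8608 CPM in the parental libraries and to 6521 to 7410 CPM in LB1. Of the 11 tested 1 was called, CDH17, a cadherin of intestinal epithelium, which fell from 67.1 ± 12.9 to 35.8 ± 11.5 CPM (SD). All 6 immune markers, 4 of 7 fibroblast markers and 2 of 4 endothelial markers stayed under 1 CPM in each of the 7 libraries. Of the neuronal markers TUBB3, a tubulin also made by carcinoma lines, was lower in LB1 (adjusted p = 0.0121), and that call ended without replicate 1 (0.161) or 2 (0.0556) of LB1 or replicate 4 of the parental line (0.0607). The part of these markers in the results was not tested.

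LMNB1, the gene for Lamin B1 (ENSG00000113368.12, chr5:126776623-126837020, plus strand, GRCh38), was lower in its own degron line before auxin. The parental libraries had 156, 149, 149 and 135 CPM, and the LB1 libraries had 100.2, 97.6 and 86.5 CPM. The groups did not overlap. The means were 147 ± 8.91 CPM (SD, n = 4) and 94.8 ± 7.31 CPM (SD, n = 3), a log2 difference of -0.64 ± 0.16 (SE) with an adjusted p of 0.0119. Here and below an adjusted p is that of edgeR's quasi-likelihood test with Benjamini-Hochberg adjustment over 21461 genes, and a gene was called under 0.05. Without replicate 3 of LB1 the log2 difference was -0.54 and the call ended (adjusted p = 0.131). In the other 0 h groups LMNB1 stood at 227 ± 45.3 CPM in LAC and 141 ± 56.8 CPM in LB2.

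LMNB1-DT, a long noncoding RNA that starts beside LMNB1 and runs the other way (ENSG00000251072.2, chr5:126751963-126776486, minus strand), was higher in LB1. It had 0, 0.165, 0.538 and 0.242 CPM in the parental libraries and 1.69, 2.66 and 1.38 CPM in LB1. All LB1 values lay above all parental ones, at low levels that come from 6 counts in the parental line and 53 in LB1. The log2 difference was 3.00 ± 0.83 (SE; adjusted p = 0.0236). The call was lost without replicate 1 of LB1 (adjusted p = 0.0931), without its replicate 2 (0.0513), and without parental replicate 1 (0.104) or 2 (0.0899). In libraries that the comparison at 0 h did not use, LMNB1-DT ran from 2.42 to 3.55 CPM in LB1 at 16 h and from 1.10 to 3.11 CPM at 96 h. The parental line stayed at or under 0.091 CPM at 16 h and 0.357 CPM at 96 h, so the groups were again apart at both times. LAC and LB2 had 0.267 ± 0.191 and 0.331 ± 0.417 CPM at 0 h.

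The starts of LMNB1 and LMNB1-DT lie head to head, with 136 bases between them. The sequence is shown because 1 short stretch carries the starts of both transcripts, of which LMNB1 was lower and LMNB1-DT higher. It is the 250 bases before the first LMNB1 start in RefSeq (GRCh38.p14, chr5:126776373-126776622, plus strand). Capitals mark the bases between the starts.
LMNB1: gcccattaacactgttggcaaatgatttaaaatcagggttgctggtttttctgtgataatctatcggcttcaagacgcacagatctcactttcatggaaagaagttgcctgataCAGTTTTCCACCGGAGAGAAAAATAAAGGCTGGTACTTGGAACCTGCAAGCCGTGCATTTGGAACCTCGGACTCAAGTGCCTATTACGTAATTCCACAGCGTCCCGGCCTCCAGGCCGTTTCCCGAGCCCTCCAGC

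The other lamin genes showed no call. LMNA, which gives Lamin A and Lamin C, ran from 615 to 862 CPM in the parental line and from 600 to 851 CPM in LB1 (log2 difference 0.01 ± 0.28, adjusted p = 0.997). LMNB2 had 283 ± 32.5 CPM in the parental line and 304 ± 52.5 CPM in LB1 (0.10 ± 0.22, adjusted p = 0.914). In both genes the groups overlapped. Within 1 Mb of LMNB1 the table held 37 genes, of which 14 were tested and 3 were called: LMNB1, LMNB1-DT and C5orf63. C5orf63 (chr5:127045235-127073506), a little studied gene further along the arm, had 4.24 ± 2.26 CPM in the parental line and 1.25 ± 0.292 CPM in LB1 (log2 difference -1.73, adjusted p = 0.00236). Its groups overlapped, and the call ended without replicate 3 of LB1 (adjusted p = 0.0706). The nearest tested protein-coding genes on either side, PHAX and MARCHF3, were not called, at log2 differences of -0.20 and -0.84.

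**Figure D1:**
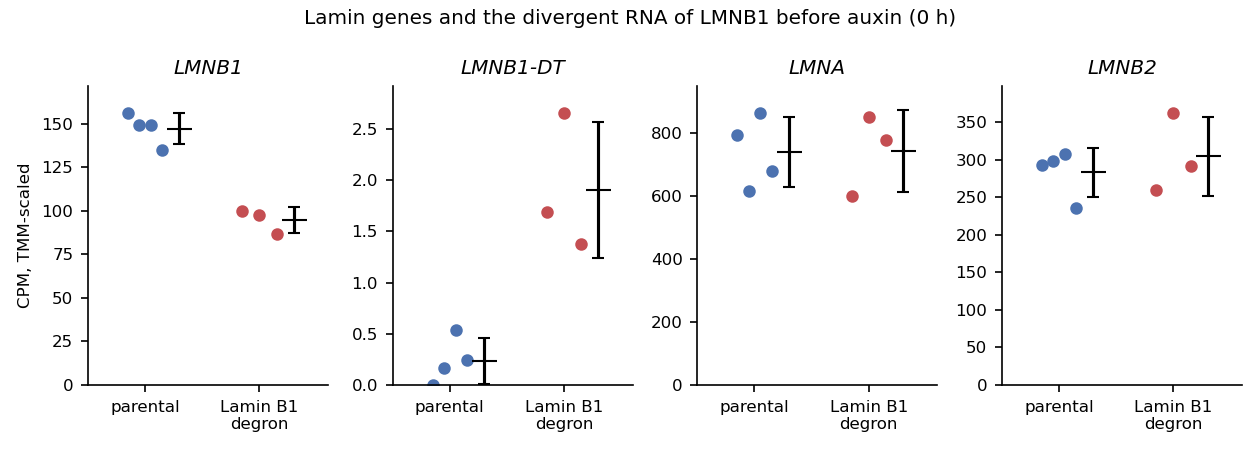
CPM of LMNB1, LMNB1-DT, LMNA and LMNB2 in each 0 h library of the parental line (blue, n = 4) and the Lamin B1 degron line (red, n = 3), with mean ± SD in black and each axis from 0. LMNB1 lies lower and LMNB1-DT higher in the degron line with no overlap, whereas LMNA and LMNB2 overlap.

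Across the transcriptome 842 of 21461 genes were called between LB1 and the parental line at 0 h, or 3.92%. Of these 346 (1.61% of genes tested) were higher in LB1 and 496 (2.31%) were lower, and 420 (1.96%) differed at least 2-fold. Of the 842 genes, 746 were protein-coding. The replicates of the groups did not overlap in 16.4% of all genes tested, called or not. The number rests on the LB1 libraries: without replicate 1, 2 or 3 of LB1 it was 548, 633 or 491. The log2 difference fell slightly with the GC content of genes (Spearman rho = -0.187 across 11339 genes with a mean over 4 CPM, which are not independent replicates), and with the trends with GC content and gene length both taken out 1430 genes were called.

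Several zinc finger genes were near 0 in LB1. ZNF577 and ZNF649, whose products are DNA-binding repressors with a KRAB domain, had 90 and 84 counts over the parental libraries and 0 counts in LB1. ZNF577 ran from 1.93 to 3.88 CPM in the parental line, and ZNF649 from 1.61 to 3.47 CPM. Set against 3 counts over the LB1 libraries, the floor used here for a count of 0, ZNF577 was at least 32.5-fold lower and ZNF649 at least 30.3-fold lower (adjusted p = 1.26e-07 and 3.17e-07). Here and below such limits take the parental counts as they stand and do not cover the spread between wells. The genes overlap on the same strand of chromosome 19 (51804816-51890950 and 51889235-51905040), so reads shared between them could be split by the counting. ZNF845 (chr19:53333749-53356906) had 6.34, 5.86, 8.97 and 4.59 CPM in the parental line against 0, 0 and 0.184 CPM in LB1. That is 192 against 2 counts, a pooled ratio of 104 with a 95% exact interval of 28.4 to 865 that covers counting error only. ZNF430 (chr19:21020634-21060050) ran from 3.77 to 5.24 CPM and had 3 counts in LB1, a ratio of 52.0 (17.4 to 255). ZNF141, on chromosome 4, had 45 counts in the parental line and 0 in LB1, at least 16.2-fold lower.

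Most genes of this family were not called. Of 184 numbered zinc finger genes tested on chromosome 19, 2 were higher and 6 lower in LB1 (4.35%, against 3.92% of all genes), and their median log2 difference was 0.03. The genes near 0 in LB1 differed in their levels in the other lines at 0 h. ZNF141 had no count in LAC or LB2, and ZNF430 had none in LAC and 0.462 ± 0.489 CPM in LB2. ZNF577 and ZNF649 kept 1.47 ± 0.238 and 2.10 ± 0.81 CPM in LAC, and 1.75 ± 0.899 and 1.54 ± 1.09 CPM in LB2. ZNF845 stood between, with 1.23 ± 0.423 CPM in LAC and 3.24 ± 0.786 CPM in LB2.

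The 250 bases before the RefSeq starts (GRCh38.p14) of the 3 genes of this group that RefSeq's promoter table holds on chromosome 19 are shown because these genes were near 0 in every LB1 library. The windows are chr19:51887952-51888201 on the minus strand for ZNF577, which lies inside the gene as counted, chr19:53333499-53333748 on the plus strand for ZNF845 and chr19:21020407-21020656 on the plus strand for ZNF430. ZNF649 has no entry. Capitals mark the motif CG, the pair that can carry DNA methylation. It occurs 17, 23 and 10 times, and 39.0%, 25.8% and 52.2% of 35116 such windows hold at least as many. Methylation was not analysed here.
ZNF577: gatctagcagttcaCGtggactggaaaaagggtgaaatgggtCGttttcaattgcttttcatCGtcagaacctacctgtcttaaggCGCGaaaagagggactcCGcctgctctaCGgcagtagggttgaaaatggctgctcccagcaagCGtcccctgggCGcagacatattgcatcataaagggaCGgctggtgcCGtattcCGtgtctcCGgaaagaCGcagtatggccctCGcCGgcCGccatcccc
ZNF845: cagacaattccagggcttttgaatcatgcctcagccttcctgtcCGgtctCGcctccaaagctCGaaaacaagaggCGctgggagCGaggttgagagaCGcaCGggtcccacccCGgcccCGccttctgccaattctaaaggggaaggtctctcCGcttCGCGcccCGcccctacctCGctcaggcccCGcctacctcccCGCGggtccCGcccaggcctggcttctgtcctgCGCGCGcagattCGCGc
ZNF430: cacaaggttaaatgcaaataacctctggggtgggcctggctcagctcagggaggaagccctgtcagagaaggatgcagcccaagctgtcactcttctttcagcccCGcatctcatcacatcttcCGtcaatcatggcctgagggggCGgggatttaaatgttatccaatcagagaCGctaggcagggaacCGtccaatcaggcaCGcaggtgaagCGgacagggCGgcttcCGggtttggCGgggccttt

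Several genes of signalling and drug transport were also near silent in LB1. FBLIM1, which encodes a filamin-binding adaptor of cell adhesions, fell from 7.43, 9.00, 14.2 and 14.8 CPM to 0.248, 0 and 0.0921 CPM (log2 difference -5.87 ± 0.53, adjusted p = 2.19e-11). VGLL1, a cofactor of TEAD transcription factors, fell from 10.2 ± 1.39 to 0.113 ± 0.125 CPM (-5.75 ± 0.56, adjusted p = 1.54e-10). ABCB1, the multidrug efflux pump, had 12.3, 11.2, 11.7 and 8.22 CPM in the parental line and 0.298, 0.664 and 0.276 CPM in LB1 (-5.11 ± 0.42, adjusted p = 1.21e-12). In each of these genes the lowest parental library was over 10 times the highest LB1 library. LAC and LB2 had 17.9 ± 1.93 and 49.3 ± 10.1 CPM of ABCB1, more than the parental line. FBLIM1 was also low in LAC (0.73 CPM) but not in LB2 (9.49 CPM).

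CGAS, the cytosolic DNA sensor, had 2.56 to 4.67 CPM in the parental line and 2 counts in LB1, a pooled ratio of 52.5 (95% exact interval 14.2 to 440). PTPRR, a phosphatase that acts on MAP kinases, had 57 against 1 count (ratio 61.8, 10.7 to 2481). SIGLEC6, a sialic acid binding lectin, had 74 counts in the parental line and 0 in LB1, at least 26.7-fold lower. DCLK1, a kinase used as a marker of tuft cells, had 44 counts and 0, at least 15.9-fold lower. ZBED2, a transcription factor, had 71 against 3 counts (ratio 25.6, 8.43 to 127), a call that ended without replicate 3 of LB1 (adjusted p = 0.0509). GPC3, a cell surface proteoglycan, had 34 counts and 0, at least 12.3-fold lower, with the call lost without replicate 1 (adjusted p = 0.0934) or 3 (0.0515) of LB1. TNFRSF10C, a decoy receptor for the death ligand TRAIL, had 37 against 1 count (ratio 40.1, 6.76 to 1626), with the call lost without replicate 1 of LB1 (adjusted p = 0.156). For the genes of this paragraph no parental library was as low as any LB1 library. The choice of genes required this of all of them but ZBED2, which was named for its counts near 0.

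Other genes were near 0 in the parental line and present in LB1. PPARGC1A, the coactivator PGC-1 alpha of mitochondrial gene programmes, had 1 count in the parental line and 108 in LB1, a pooled ratio of 99.7 (95% exact interval 17.5 to 3973). Its LB1 libraries differed among themselves, at 3.82, 0.664 and 2.76 CPM. CXCR2, a receptor for neutrophil-attracting chemokines, rose from 0.291 ± 0.292 to 5.92 ± 2.66 CPM (log2 difference 4.63 ± 0.59, adjusted p = 1.26e-07). LAC and LB2 had 0.0582 and 0.1 CPM of CXCR2, so of the 0 h groups LB1 alone had a mean above 2 CPM.

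The other large rises spanned transcription factors, enzymes and secreted proteins. PROX1, a homeobox factor that intestinal tumours can express, rose from 1.34, 3.47, 1.97 and 5.08 CPM to 17.7, 9.96 and 15.8 CPM (log2 difference 2.43 ± 0.35, adjusted p = 2.37e-06). ZNF711, an X-linked zinc finger gene, rose from 2.95 ± 0.961 to 15.1 ± 1.08 CPM (2.39 ± 0.27, adjusted p = 4.42e-09). CTHRC1, a secreted collagen repeat protein, rose from 1.86 ± 0.827 to 10.0 ± 3.13 CPM, and PELI2, a ubiquitin ligase of innate immune signalling, from 0.29 ± 0.14 to 3.47 ± 1.59 CPM. NUPR1, a stress-induced chromatin protein, had 1 count in the parental line and 70 in LB1 (ratio 64.6, 11.2 to 2588). CXXC4, an inhibitor of WNT signalling, had 2 against 40 counts (ratio 18.5, 4.79 to 158). GJB6, which encodes the gap junction protein connexin 30, rose from 0.508 ± 0.367 to 2.95 ± 1.43 CPM (2.54 ± 0.51, adjusted p = 0.000732). In all genes of this paragraph and the previous one the groups did not overlap, as the choice of genes required.

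A few rises rested on fewer libraries. CPAMD8, a protease inhibitor of the alpha-2-macroglobulin family, had 1 against 33 counts, with 4.65 CPM in the shallow replicate 2 of LB1 and 0.645 and 1.20 CPM in its other replicates. AGXT, the peroxisomal enzyme that clears glyoxylate, rose from 0.131 ± 0.171 to 1.81 ± 0.857 CPM, a call that ended without replicate 3 of LB1 (adjusted p = 0.0554). CYP4F12, a fatty acid hydroxylase, rose from 0.166 ± 0.115 to 1.23 ± 0.504 CPM, and its call ended without replicate 1 of LB1 (0.0862) or replicate 2 of the parental line (0.0741). HOXC8, a homeobox gene of trunk identity, rose from 0.245 ± 0.436 to 1.68 ± 0.413 CPM, and its call ended without replicate 1 of LB1 (0.0765) or replicate 2 of the parental line (0.051). GLUD1P2, a pseudogene near 0 in the parental line by count, was not tested, and 6.64 CPM in replicate 2 of LB1 against 0.248 and 0.0921 CPM in the others made up its level.

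**Figure D2:**
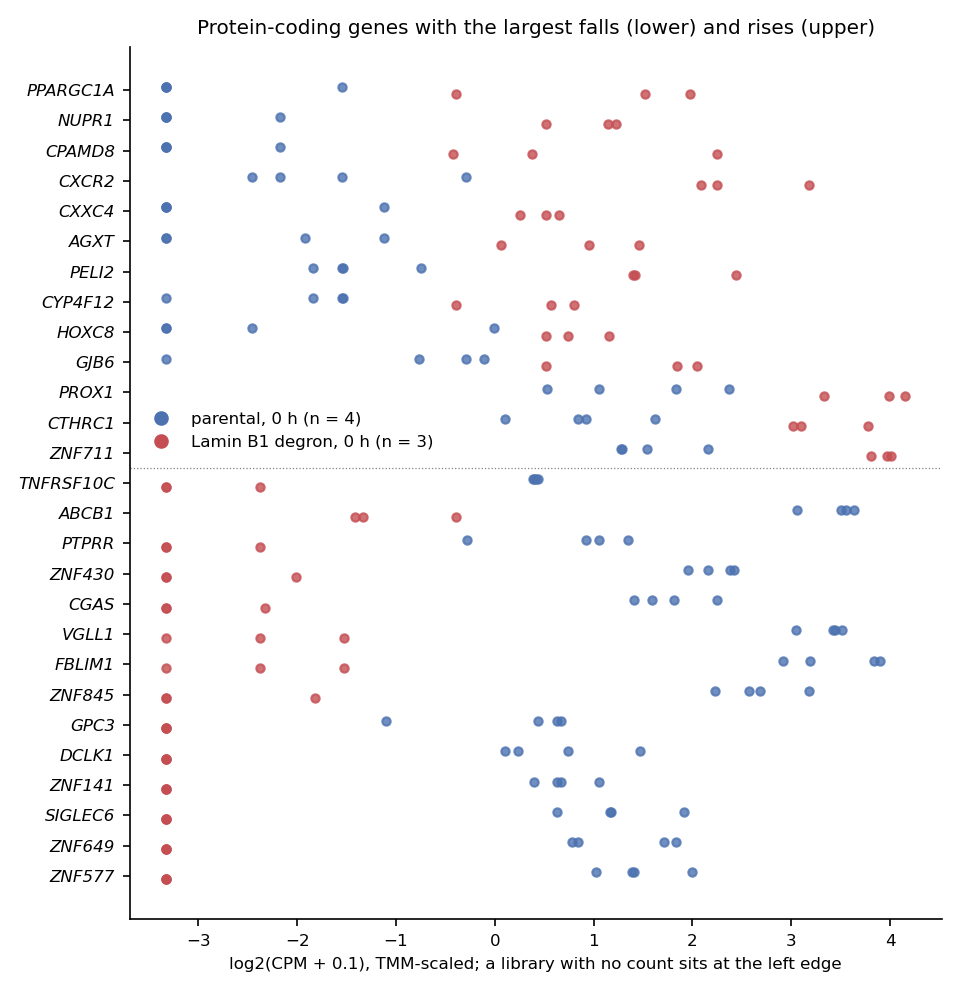
Level of the 14 protein-coding genes with the largest falls (lower block) and of 13 with the largest rises (upper block) in each 0 h library, as log2(CPM + 0.1). Parental libraries are blue (n = 4) and Lamin B1 degron libraries red (n = 3), and in every gene the colours do not overlap, as the choice of genes required.

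Besides protein-coding genes, MIR4458HG, a host RNA of a microRNA on 5p, had 35 counts in the parental line and 0 in LB1, at least 12.6-fold lower (adjusted p = 0.000168). The pseudogene CRYZL2P had 60 counts and 0, at least 21.7-fold lower (adjusted p = 0.000116). TTC3P1, a processed pseudogene on the X chromosome whose reads can be shared with its parent gene, rose from 3.14 ± 0.592 to 11.6 ± 4.92 CPM (log2 difference 1.72 ± 0.35, adjusted p = 0.000996). LINC01807, a long noncoding RNA on 2q, had 2.13 ± 1.40 CPM in the parental line and 6.56 ± 1.23 CPM in LB1, a call lost without replicate 1 of LB1 (adjusted p = 0.0546) or replicate 1 (0.0602) or 3 (0.0525) of the parental line. RNU1-67P, a U1 small nuclear RNA copy inside SLC25A43, was called lower at 0 h, and the call ended without replicate 1 (adjusted p = 0.0539), 2 (0.0727) or 3 (0.242) of LB1, and without replicate 1 (0.115) or 4 (0.0506) of the parental line. NEAT1, the scaffold RNA of nuclear paraspeckles, fell from 853, 635, 729 and 942 CPM to 462, 348 and 350 CPM (log2 difference -1.03 ± 0.18, adjusted p = 0.000138).

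Called genes were not spread evenly along the chromosomes. Over 10 Mb windows with at least 15 genes over 4 CPM, most medians of the log2 difference lay near 0, and the lowest lay on the first 10 Mb of chromosome 5 at -0.92. The regions described here were chosen after their values were seen. On chromosome 5 below 30 Mb, 87 genes were tested and 37 called (42.5%, against 3.92% of all genes), 36 of them lower and 1 higher. Without replicate 2 of LB1 the numbers were 34 and 1. Of its 42 genes over 4 CPM, 39 had a log2 difference under 0. The median over these genes was -0.91, or 0.531 of the parental level, with quartiles of -1.18 and -0.74. Each LB1 library showed it, with medians of -0.905, -0.996 and -0.956 against the parental mean, while the 4 parental libraries ran from -0.04 to 0.05. On the rest of chromosome 5 the median was 0.07, with 12 genes higher and 27 lower among 860.

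Genes of unrelated function moved together there. NSUN2, an RNA cytosine methyltransferase, had 127, 135, 134 and 133 CPM in the parental line and 64.9, 61.8 and 63.3 CPM in LB1 (log2 difference -1.06 ± 0.13, adjusted p = 6.31e-08). SDHA, a subunit of respiratory complex II, fell from 27.2 ± 2.89 to 12.8 ± 5.03 CPM (-0.95, adjusted p = 0.000385), and MTRR, which restores methionine synthase, from 39.6 ± 2.84 to 18.0 ± 1.52 CPM (-1.12, adjusted p = 0.000219). MYO10 (chr5:16661907-16936288), the motor of filopodia, fell from 181 ± 29.6 to 104 ± 14.4 CPM (-0.78, adjusted p = 0.000436). Past 30 Mb, DROSHA (start at chr5:31400494), the nuclear enzyme that cuts primary microRNAs, was not called (-0.37, adjusted p = 0.293). GOLPH3, a Golgi membrane protein, was not called either (0.17, adjusted p = 0.624). Where between MYO10 and DROSHA the shift ends was not resolved. SEMA5A, an axon guidance protein within the region, fell from 150 ± 21.6 to 23.4 ± 3.34 CPM (-2.73 ± 0.16, adjusted p = 3.65e-17). Its level was 63.3 ± 7.51 CPM in LAC and 65.0 ± 7.44 CPM in LB2.

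TERT, the catalytic subunit of telomerase, lies in the same stretch (chr5:1253147-1295068, minus strand) and was its only gene called higher at 0 h. The parental libraries had 2.68, 1.98, 2.69 and 1.69 CPM, and the LB1 libraries 6.25, 6.64 and 5.53 CPM. The groups did not overlap, with a log2 difference of 1.40 ± 0.33 (adjusted p = 0.00532). The call ended without replicate 1 of LB1 (adjusted p = 0.0571). At 16 h TERT had 2.43 ± 0.71 CPM in the parental line and 6.10 ± 2.06 CPM in LB1 (adjusted p = 0.00217), and at 96 h 3.56 ± 0.832 and 12.8 ± 3.09 CPM (adjusted p = 1.77e-06).

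At the far end of chromosome 2 the shift went up. From CXCR2 (start at chr2:218125289) to the end of the chromosome 225 genes were tested and 57 called (25.3%), all of them higher in LB1, and 49 were called higher and 0 lower without replicate 2 of LB1. Of 114 genes over 4 CPM, 108 had a log2 difference above 0, with a median of 0.55, or 1.46 times the parental level, and quartiles of 0.38 and 0.66. The LB1 libraries had medians of 0.53, 0.50 and 0.54 against the parental mean, and the parental libraries ran from -0.04 to 0.04. USP37, a deubiquitinase, had 50.3, 62.9, 49.7 and 50.8 CPM in the parental line and 97.2, 89.0 and 98.8 CPM in LB1 (0.83 ± 0.17, adjusted p = 0.00113). FARSB, a subunit of phenylalanyl-tRNA synthetase, rose from 90.5 ± 7.60 to 168 ± 16.5 CPM, and WDFY1, an endosomal adaptor, from 35.4 ± 3.31 to 63.9 ± 8.55 CPM. CUL3, the scaffold of a ubiquitin ligase family, rose from 86.0 ± 11.8 to 133 ± 19.0 CPM (0.64 ± 0.14, adjusted p = 0.00353), a call that ended without replicate 3 of LB1 (0.0601). Before this stretch, IGFBP2, an IGF binding protein, showed no difference that could be called (-0.01 ± 0.29, adjusted p = 0.997). CXCR2, AGXT and LINC01807, described above, lie within the raised region, with log2 differences well beyond its quartiles.

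The regional shifts were present in libraries that the comparison at 0 h did not use. On chromosome 5 below 30 Mb the LB1 libraries had medians from -1.001 to -0.703 at 16 h and from -1.04 to -0.91 at 96 h against the parental 0 h mean. At the end of chromosome 2 they had medians from 0.60 to 0.71 at 16 h and from 0.41 to 0.56 at 96 h. The LAC and LB2 libraries at 0 h ran from -0.17 to 0.15 on chromosome 5 below 30 Mb and from -0.10 to 0.17 at the end of chromosome 2. DNA was not analysed here, so the number of copies of either region is not known from these data. Without the genes of both regions, 748 genes were called.

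**Figure D3:**
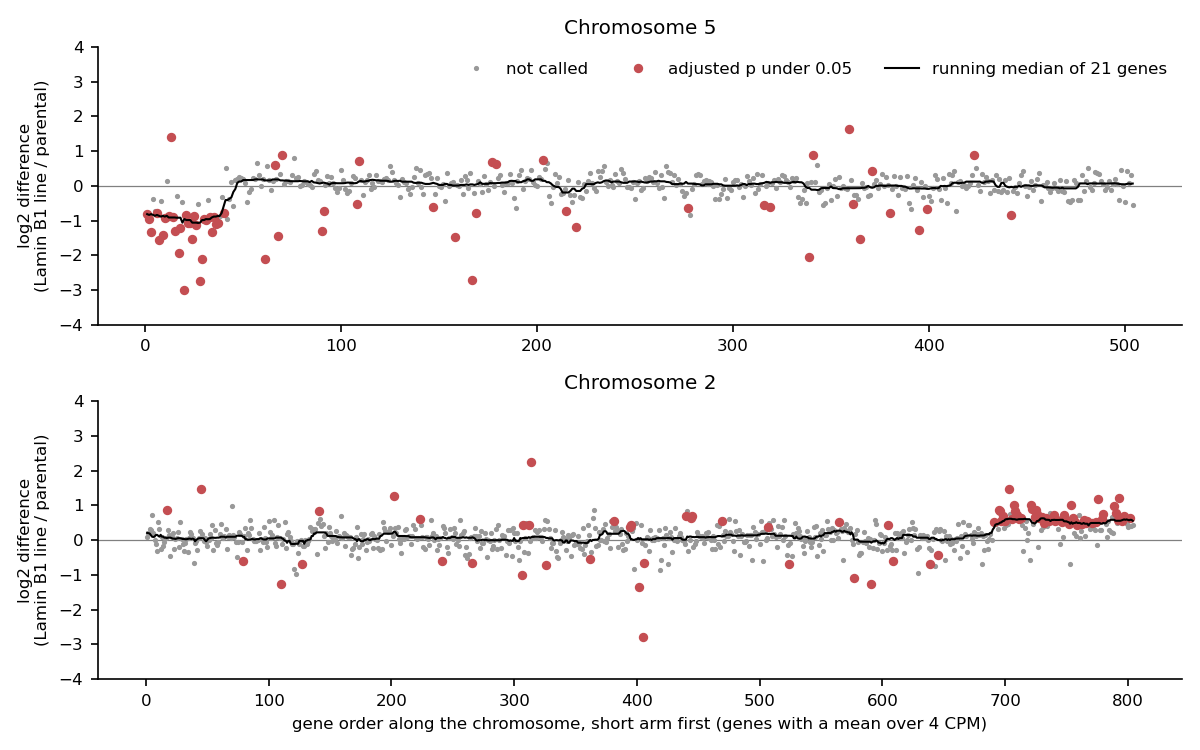
Log2 difference between the Lamin B1 degron line and the parental line at 0 h for each gene with a mean over 4 CPM, in gene order along chromosome 5 (upper) and chromosome 2 (lower), with called genes in red and a running median of 21 genes in black. The median lies near -0.91 over the first 42 genes of chromosome 5 and near 0.55 over the last 114 genes of chromosome 2.

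Genes of the nuclear envelope were next examined by lists. The members of these and all later lists were chosen with earlier results of these data known. The shares called are thus a description and no independent test. The lists held 16 inner nuclear membrane partners of lamins, 30 nuclear pore genes and 25 writers and readers of heterochromatin. Of these genes 0 were called by edgeR's quasi-likelihood test, against 3.92% of all genes. Each list is too small to tell 0 calls from that share. Their medians were 0.06, 0.13 and 0.06, against -0.03 over all genes tested and 0.03 over those with a mean over 4 CPM. At an unadjusted p under 0.05 the numbers were 1, 4 and 3. DESeq2 called 0, 1 and 0 of them and limma voom 0, 3 and 1. Of the LINC complex, which joins lamina and cytoskeleton, 1 of 6 tested genes was called (16.7%, against 3.92% of all genes), also without replicate 2 of LB1. SYNE3, which encodes nesprin-3, the nesprin that binds plectin, had 16.3, 21.0, 15.4 and 14.0 CPM in the parental line and 3.77, 3.98 and 3.13 CPM in LB1. The groups were far apart, with a log2 difference of -2.25 ± 0.29 (adjusted p = 1.58e-07).

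Genes of adhesion, contractility and mesenchymal character were lower more often than higher. Of 21 targets of YAP, the growth regulator that responds to cell tension and contact, 6 were lower and 2 higher (38.1% called, against 3.92% of all genes), with a median of -0.31. ANKRD1, a nuclear ankyrin protein, had 117, 96.1, 85.9 and 96.7 CPM in the parental line and 17.1, 23.2 and 17.6 CPM in LB1 (log2 difference -2.42 ± 0.21, adjusted p = 3.9e-12). F3, the tissue factor that starts clotting, fell from 108 ± 11.5 to 52.7 ± 7.67 CPM, and NT5E, the enzyme CD73 that makes adenosine, from 381 ± 57.9 to 214 ± 3.99 CPM. CRIM1, which binds BMP ligands, fell from 382 ± 32.8 to 239 ± 14.4 CPM. The members called higher, IGFBP3 and NUAK2, were named after their values were seen, at log2 differences of 1.37 and 0.74. Without replicate 2 of LB1, 5 targets were lower and 2 higher. At 16 h the median of these targets was 0.01, with 2 called lower and 2 higher. At 96 h it was -0.71, with 12 lower and 1 higher.

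Of 18 mesenchymal transition genes, 6 were lower and 1 higher (38.9% called, against 3.92% of all genes), and without replicate 2 of LB1 4 were lower and 1 higher. TNC, the matrix protein tenascin C, fell from 37.0 ± 8.07 to 8.57 ± 3.14 CPM, and THBS1, thrombospondin 1, from 567 ± 69.9 to 281 ± 18.1 CPM. TGFB2, a TGF-beta ligand, was the member called higher, with 68.4 ± 6.45 CPM in the parental line and 140 ± 9.33 CPM in LB1. Of 15 integrins 4 were lower and 0 higher (26.7% called), but without replicate 2 of LB1 1 was lower. ITGA1, a collagen receptor subunit, fell from 26.6 ± 2.57 to 11.6 ± 3.25 CPM (-1.31 ± 0.23, adjusted p = 0.000119), and its call held without any 1 library.

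Of 24 SRF targets and contractile actin genes, 2 were lower and 1 higher (12.5% called, against 3.92% of all genes), with a median of -0.22. Without replicate 2 of LB1 1 was lower and 0 higher. MYL9, a myosin light chain, was the other member called lower, and its call ended without replicate 1 (adjusted p = 0.0666), 2 (0.0516) or 3 (0.211) of LB1 or replicate 1 (0.0555) or 3 (0.0553) of the parental line. MYLK, the kinase of myosin light chains, fell from 12.7 ± 1.20 to 5.06 ± 2.15 CPM (log2 difference -1.15, adjusted p = 0.00358). ACTN1, an actin cross-linker, rose from 160 ± 7.94 to 243 ± 38.8 CPM (0.59, adjusted p = 0.00595), a call that ended without replicate 2 of LB1 (adjusted p = 0.0713). Of 31 junction genes 3 were lower and 2 higher (16.1% called). CDH13, a cadherin that lacks a cytoplasmic part, had 7.07, 9.58, 5.38 and 11.8 CPM in the parental line and 0.496, 0 and 0.46 CPM in LB1 (-4.18 ± 0.39, adjusted p = 7.5e-11). PCDH1, a protocadherin of epithelia, fell from 61.7 ± 3.20 to 21.4 ± 0.941 CPM, while PCDH7 rose from 3.06 ± 1.23 to 12.1 ± 3.30 CPM.

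WNT feedback targets went mostly the other way. Of 19 tested, 5 were higher and 1 lower (31.6% called, against 3.92% of all genes), with a median of 0.32, and without replicate 2 of LB1 4 were higher and 1 lower. LEF1, a partner of beta-catenin, had 45.6, 51.2, 50.0 and 65.3 CPM in the parental line and 94.1, 87.6 and 87.7 CPM in LB1 (log2 difference 0.77 ± 0.14, adjusted p = 0.000122). TNFRSF19, a receptor of the TNF family, rose from 51.4 ± 9.51 to 108 ± 14.4 CPM, and PROX1 is given above. LGR5, the receptor for R-spondins that marks intestinal stem cells, was the member that fell, from 41.9, 51.1, 41.1 and 41.1 CPM to 16.7, 11.9 and 15.6 CPM (-1.51 ± 0.20, adjusted p = 3.87e-07).

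The aryl hydrocarbon receptor senses small aromatic molecules, and of a list of 9 genes, which holds its targets, the receptor and its partner, 4 were higher and 0 lower (44.4% called, against 3.92% of all genes), also without replicate 2 of LB1. AHR, the receptor itself, had 384, 338, 314 and 326 CPM in the parental line and 869, 745 and 822 CPM in LB1 (log2 difference 1.25 ± 0.21, adjusted p = 4.13e-05). CYP1A1 and CYP1B1, its classical enzyme targets, rose from 2.01 ± 0.867 to 6.36 ± 1.97 CPM and from 45.4 ± 4.69 to 82.2 ± 3.68 CPM. ALDH3A1, an aldehyde dehydrogenase, had 73.3 ± 13.2 CPM and 111 ± 4.06 CPM, and its call ended without replicate 1 of LB1 (adjusted p = 0.058) or replicate 1 (0.0712) or 3 (0.0535) of the parental line. Of 17 goblet and secretory genes 3 were higher (17.6% called), with a median of -0.06. MUC5AC, a gel-forming mucin, rose from 133 ± 6.11 to 336 ± 67.7 CPM, AGR2, a protein disulfide isomerase of mucus cells, from 352 ± 15.0 to 747 ± 81.6 CPM, and KLK10, a secreted peptidase, from 30.4 ± 3.37 to 63.9 ± 10.4 CPM.

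Among signalling outputs, 4 of 17 MAPK feedback genes were lower and 0 higher (23.5% called, against 3.92% of all genes), with 16 of 17 log2 differences under 0. Without replicate 2 of LB1 3 were lower. DUSP6, the phosphatase of ERK, had 340, 362, 328 and 330 CPM in the parental line and 177, 183 and 184 CPM in LB1 (log2 difference -0.91 ± 0.15, adjusted p = 2.23e-05). DUSP4 and DUSP5, related phosphatases, fell from 32.6 ± 3.54 to 14.6 ± 3.86 CPM and from 187 ± 26.0 to 105 ± 0.398 CPM. Of 25 cytokines and chemokines, 7 were lower and 0 higher (28.0% called), or 6 and 0 without replicate 2 of LB1. IL33, a nuclear alarmin, had 11.0, 14.4, 14.0 and 9.43 CPM in the parental line and 0.446, 1.99 and 0.737 CPM in LB1 (-4.23 ± 0.43, adjusted p = 3.78e-10). CXCL5, a ligand of CXCR2, fell from 140 ± 12.5 to 42.1 ± 1.99 CPM (-1.74 ± 0.16, adjusted p = 5.36e-11). IL18 fell from 112 ± 14.2 to 69.1 ± 4.72 CPM, and IL32 from 2.19 ± 0.857 to 0.0803 ± 0.0751 CPM.

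Of 43 interferon-stimulated genes, 5 were lower and 0 higher (11.6% called, against 3.92% of all genes), or 4 and 0 without replicate 2 of LB1, with a median of -0.15. SAMD9, an antiviral translation block, had 35.2, 49.0, 32.3 and 33.1 CPM in the parental line and 14.4, 11.3 and 14.1 CPM in LB1 (log2 difference -1.46 ± 0.23, adjusted p = 1.27e-05). MX2, which acts on viral capsids, fell from 7.12 ± 2.10 to 2.33 ± 0.463 CPM, and HERC5, the ligase of ISG15, from 14.5 ± 1.02 to 7.79 ± 0.78 CPM. HLA-B, a class I antigen-presenting molecule whose reads can be shared with other class I genes, fell from 7.69 ± 4.28 to 1.25 ± 0.562 CPM.

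The mitotic and DNA replication lists are too small to tell 0 or 1 calls from the share of 3.92% over all genes. Of 34 mitotic genes 0 were called by edgeR, with 1 at an unadjusted p under 0.05, 0 called by DESeq2 and 2 by limma voom. Of 40 genes of DNA replication 1 was lower, E2F8, a repressor of the E2F family, which fell from 30.5 ± 3.91 to 13.0 ± 2.22 CPM (log2 difference -1.16 ± 0.17, adjusted p = 1.97e-06). Of 42 replication-dependent histone genes 6 were higher and 0 lower (14.3% called, against 3.92% of all genes), and 40 of 42 log2 differences lay above 0, with a median of 0.51. These RNAs lack a poly(A) tail, and the numbers rested on replicate 2 of LB1, the shallowest library: without it 1 was called, at a median of 0.46. H3C12, a histone H3 gene, had 216, 133, 151 and 165 CPM in the parental line and 244, 351 and 246 CPM in LB1, where replicate 2 was the highest. Without that library its call ended (adjusted p = 0.103). Of 23 p53 targets 3 were lower and 0 higher (13.0% called), or 2 without replicate 2 of LB1, with a median of -0.02.

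The remaining lists held 0 to 5 calls each, against 3.92% of all genes. The shares called were 0% for germline, 6.25% for lipid synthesis, 16.0% for ion channel and 15.15% for axon guidance genes. They were 5.88% for immediate early, 15.8% for enterocyte and 11.8% for intermediate filament genes. The NRF2 and ATF4 lists had 9.52% each. Of 4 tested cancer testis and germline genes, out of 31 listed, 0 were called by edgeR, with 0 at an unadjusted p under 0.05 and 0 called by DESeq2 or limma voom. Of 32 cholesterol and fatty acid synthesis genes 2 were lower, among them MVK, mevalonate kinase, which fell from 43.8 ± 5.49 to 22.1 ± 3.16 CPM. Of 25 ion channel genes 2 were higher and 2 lower, or 1 and 2 without replicate 2 of LB1. CFTR, the chloride channel mutated in cystic fibrosis, rose from 3.11 ± 1.13 to 9.52 ± 1.49 CPM (log2 difference 1.73 ± 0.32, adjusted p = 0.000203), and KCNK5, a background potassium channel, fell from 11.5 ± 1.64 to 4.85 ± 1.37 CPM. Of 33 ephrin, semaphorin and axon guidance genes 3 were higher and 2 lower, or 0 and 3 without replicate 2 of LB1. NRP1, a coreceptor for semaphorins and VEGF, fell from 90.3 ± 13.6 to 38.6 ± 3.57 CPM (-1.24 ± 0.18, adjusted p = 1.81e-06). Of 17 immediate early genes 1 was lower, of 19 enterocyte genes 3 and of 17 intermediate filament genes 2, and without replicate 2 of LB1 the last numbers were 1 each. The NRF2 and ATF4 lists of 21 genes had 1 higher and 1 lower each, and without replicate 2 of LB1 they had 0 and 0, and 1 and 0.

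**Figure D4:**
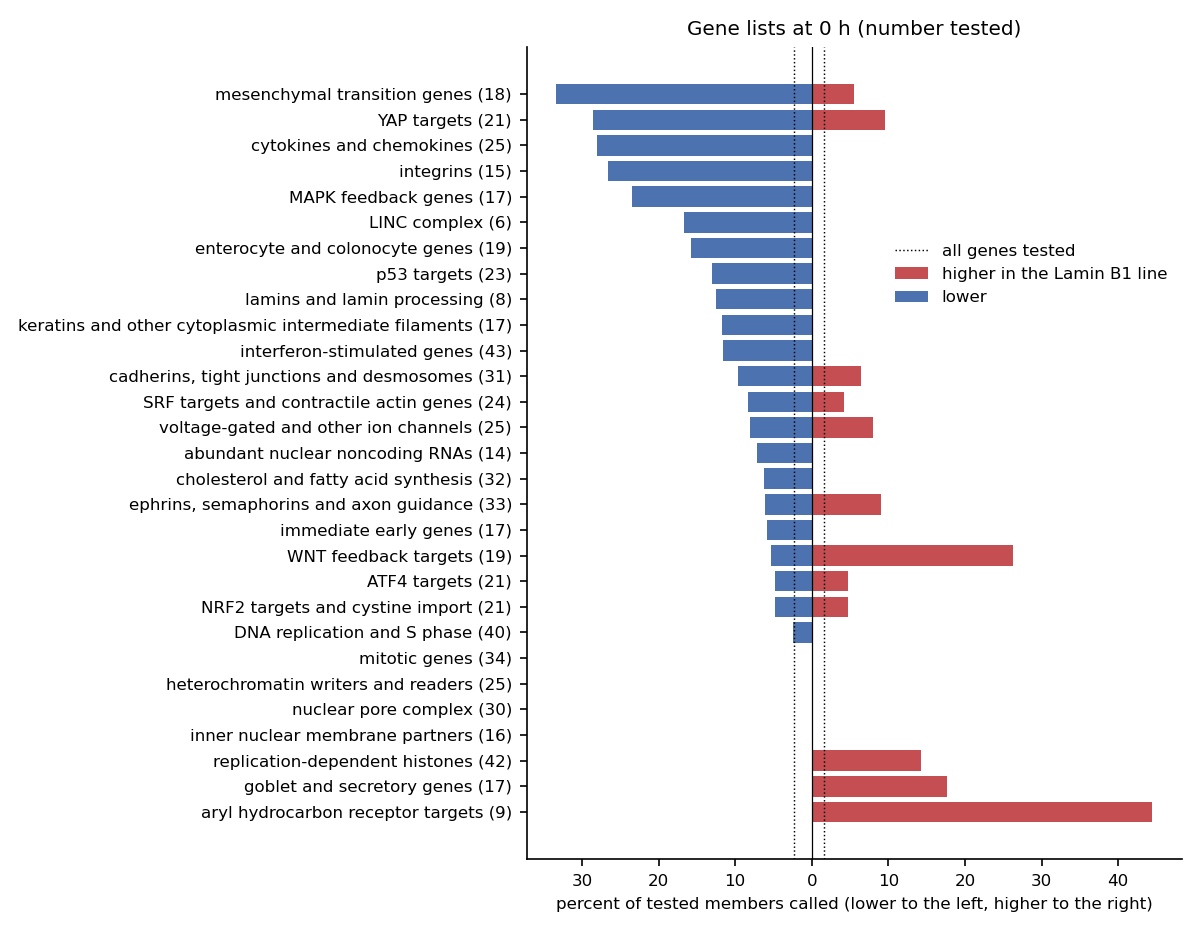
Percent of the tested members of each list called lower (blue, to the left) or higher (red, to the right) in the Lamin B1 degron line at 0 h, with the number tested in brackets and dotted lines at the shares over all genes tested (2.31% lower, 1.61% higher). The YAP, mesenchymal, cytokine, integrin and MAPK lists lean to the left, and the aryl hydrocarbon receptor, WNT, goblet and histone lists to the right. Without replicate 2 of the degron line 1 integrin was called lower and 1 histone gene higher. The lists were chosen with earlier results of these data known.

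The same lines were compared in libraries made after 16 and 96 h of auxin, which share no library with the 0 h comparison. In them the parental line also had auxin, and LB1 had the trigger for degradation of Lamin B1, so the lines differ there by more than before auxin. At 16 h 906 genes were called (4.22%, with 1.53% higher and 2.69% lower in LB1) and at 96 h 3646 (17.0%, with 7.29% higher and 9.7% lower). The count at 96 h was 2201 without replicate 2 of LB1 and 2396 without replicate 2 of the parental line. Of the 842 genes called at 0 h, 422 (50.1%) were called in the same direction at 16 h and 0 in the opposite direction. Those 422 were 46.6% of the genes called at 16 h. At 96 h 521 (61.9%) were called in the same direction and 10 in the opposite one, and those 521 were 14.3% of the 3646 genes. In sign alone 789 of the 842 agreed at 16 h and 766 at 96 h. A total of 334 genes (39.7%) were called the same way at all 3 times. At 0, 16 and 96 h the list medians were -0.30, 0.004 and -0.37 for MAPK and -0.22, 0.04 and -0.385 for SRF. For the WNT list they were 0.32, 0.08 and -0.02, and for the aryl hydrocarbon receptor list 0.42, 0.13 and 0.10. Integrins had -0.275, -0.43 and -0.51, mesenchymal genes -0.50, -0.18 and -0.31, and cytokines -0.49, -0.25 and -0.59. Histone genes had 0.51, 0.26 and 0.18.

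Single genes differed in how far the line difference was present at the later times. ZNF649 had no count in any LB1 library at 16 or 96 h, with 3.00 ± 1.11 and 2.69 ± 1.11 CPM in the parental line at those times. CDH13 had no count in LB1 at 16 h against 6.12 ± 0.927 CPM. ABCB1 stood at 35.5 ± 4.16 CPM in the parental line at 16 h, while LB1 had 0.201 ± 0.194 CPM. SIGLEC6 and DCLK1, at 0 counts in LB1 at 0 h, had 0.287 ± 0.266 and 0.0772 ± 0.102 CPM in LB1 at 16 h. The log2 difference of HLA-B was -2.27 at 0 h and 0.11 at 16 h, and that of IL32 -4.04 and -0.18. Among named genes only ANKRD1 was called for a change from 0 h to 16 h, so neither of these changes was called. That of AGR2 was 1.09 at 0 h and 0.00 at 96 h. The line difference itself changed from 0 h in 5 of the 842 genes at 16 h and in 50 at 96 h by the interaction term of the same model. The 842 genes were chosen by their call at 0 h, and the term uses the same 0 h libraries, which favours smaller differences later. Shares over all genes tested are not given for this term.

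**Figure D5:**
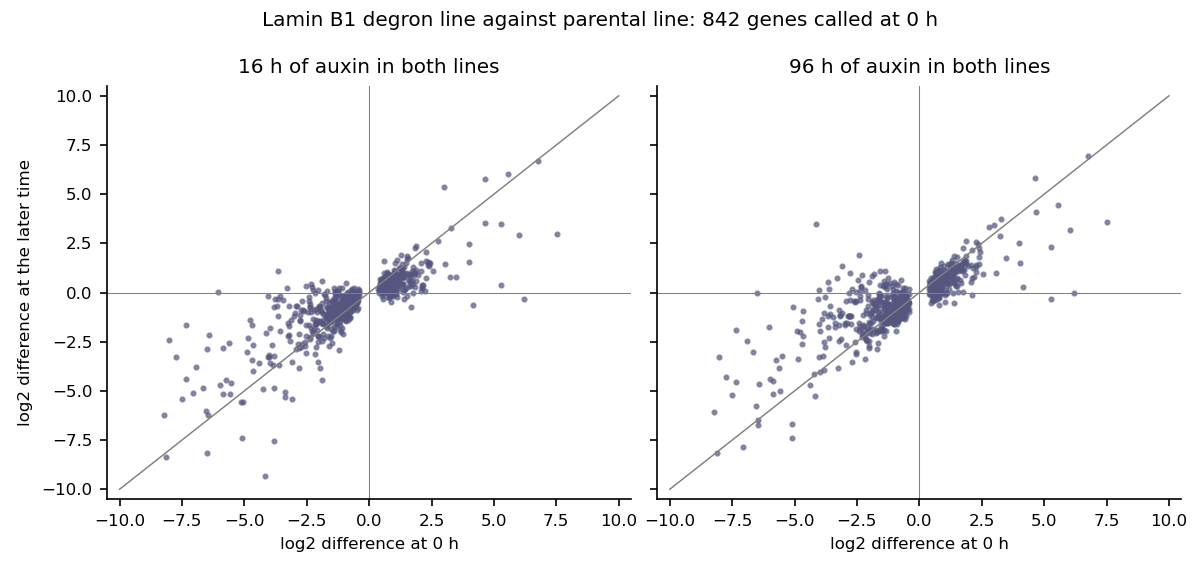
Log2 difference between the Lamin B1 degron line and the parental line for the 842 genes called at 0 h, against the same difference at 16 h (left) and 96 h (right) of auxin in both lines, with the line of equal values in grey. Of the 842 points, 789 have the same sign at 16 h and 766 at 96 h, and genes near 0 counts at 0 h scatter most.

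LB1 was also set directly against the other degron lines at 0 h, which carry their own tag. These comparisons share the LB1 libraries with the one above. Between LB1 and LAC 3696 genes were called (17.2%, with 7.73% higher and 9.49% lower in LB1), and between LB1 and LB2 2093 (9.75%, with 5.17% higher and 4.59% lower). Fitted to the compared groups alone, these counts were 1043 and 642, and the count against LAC was 2315 without replicate 1 of LB1 and 2322 without its replicate 3. LMNB1 was lower in LB1 than in LAC (log2 difference -1.26, adjusted p = 1.39e-07) and than in LB2 (-0.55, adjusted p = 0.0203). ABCB1 was lower than in LAC and LB2 (-5.84 and -7.30, adjusted p = 1.04e-15 and 4.19e-20). On chromosome 5 below 30 Mb 40 genes were lower and 0 higher than in LAC, and 38 lower and 1 higher than in LB2. At the end of chromosome 2 66 were higher and 6 lower than in LAC, and 60 higher and 1 lower than in LB2.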

How the data were processed

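RNA-seq gene counts of DLD-1 libraries were analysed. The values are raw counts by gene in 1 table that the authors deposited, made with featureCounts 1.6.4 in an nf-core/rnaseq 1.4.2 environment, per the file headers. The submitters' processing notes also name STAR 2.7.10a and GRCh38. Strand setting and annotation release are not given in the sources used here, so overlapping, antisense and near-identical genes are uncertain. All 46 columns matched a library. Of 62756 genes, 600 on chromosome Y were left out, and 1 gene broken over several lines was not used. Types come from GENCODE release 29 (92.9% of genes found).

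Counts of all libraries entered 1 edgeR 4.0.16 fit (R 4.3.3; TMM, filterByExpr, quasi-likelihood test, 1 coefficient per group), which kept 21461 genes. Alternatives used DESeq2 1.42.0, limma 3.58.1, other scaling and other filters. On simulated data for this comparison (20910 genes), 61% of 2-fold and 93% of 4-fold changes were called. The changed genes were drawn only from those above a set average level, so these shares do not cover genes at low levels. The floor of 3 counts is 0.155 to 2.07 CPM in single LB1 libraries.

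Named genes were the lamins, genes within 1 Mb of LMNB1, the 14 largest protein-coding and 3 largest other changes each way among called genes of at least 1 CPM without overlap of replicates, up to 6 each way near 0 counts, and up to 4 called genes per list by adjusted p. Regions, and the genes named in them, were chosen after their values were seen. A few named genes are not reported here. Members and lists were chosen with earlier results of these data known.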

Additional observations from a re-analysis of the deposited data

Results flagged for a closer look

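For 9 of the named genes the difference between LB1 and the parental line changed from 0 h to a time with auxin, by the interaction term of the edgeR fit with Benjamini-Hochberg adjustment. Most named genes were chosen by their difference at 0 h, and this term uses the same 0 h libraries. That choice favours smaller differences later, and all 9 changes ran against the sign of the difference at 0 h. At 16 h the log2 difference of ANKRD1 was 1.97 higher than at 0 h. At 96 h it was higher by 1.80 for FOSB, 1.11 for SEMA5A and 1.57 for NEAT1. At 96 h the change was -1.08 for TNFRSF19, -0.75 for CYP1B1, -0.825 for ALDH3A1, -1.09 for AGR2 and -0.85 for TGFB2. AGR2 and TNFRSF19, which were about 2 times higher in LB1 at 0 h, had log2 differences of 0.00 and -0.02 at 96 h.

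In 13 of 130 genes looked at, 1 of the 4 parental libraries stood far from the others by Dixon's test (critical value 0.829). The highest library had 0.242 CPM for PPARGC1A, 0.122 for NUPR1, 0.122 for CPAMD8, 0.359 for CXXC4, 0.897 for HOXC8, 219 for PRRC1, 468 for NT5E, 51.1 for LGR5, 10.2 for MX2, 133 for IL18, 92.9 for H2AC4 and 62.9 for USP37. The lowest had 59.7 CPM for KRT20. In several of these genes, such as PPARGC1A, NUPR1 and CPAMD8, the other parental libraries had no count. A gene with counts in only 1 library is flagged at any level, so the number is not set against a share expected by chance.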

How the results depend on the processing

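For LB1 against the parental line at 0 h the count of 842 became 1522 with limma voom and quality weights, 1430 with the GC and length trend removed, 1322 with the compared groups alone and 1644 with both of the last (a choice made after seeing the data), and 491 to 722 without single replicates. At 16 h (906) it became 2435 with voom, 1704 without libraries under 5000000 counts, 1712 with the trend removed, 1390 with the compared groups alone and 656 to 811 without single replicates. At 96 h (3646) it was 5542 with voom, 5777 without the shallow libraries and 2201 to 3652 without single replicates, the lowest without replicate 2 of LB1 and 2396 without replicate 2 of the parental line. The share of calls that were higher at 96 h was 42.9%, 65.8% with library size only and 55.3% with RLE scaling. Against LAC (3696) the count was 5677 with voom, 1043 with the compared groups alone and 2315 to 4353 without single replicates (2315 and 2322 without replicate 1 or 3 of LB1). Library size only moved the higher share there from 44.9% to 66.4%. Against LB2 (2093) it was 3475, 642 and 1411 to 2384, and 3158 with the trend removed. At 0 h without libraries under 5000000 counts 1073 genes were called, 51.9% of them higher against 41.1%.

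With the replicate number as a block the 0 h count was 886, and 865 with the compared groups alone. Same-numbered parental and LB1 libraries correlated at 0.00531, -0.251 and 0.159 in their deviations, so the numbers do not pair the samples, and not every sample correlated best with its own number. The block counts were 934 at 16 h, 3744 at 96 h, 4009 against LAC and 2192 against LB2.

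Of 114 named genes with a call at 0 h, 71 kept it in every alternative that gave a value, 26 lost it in 1 to 3 and 17 in more than 3. With the compared groups alone and the block (chosen after seeing the data) the calls of C5orf63, GJB6, GPC3, HOXC4, HOXC8, KCNJ8, LMNB1-DT, TERT and TUBB3 ended, at adjusted p from 0.0521 to 0.144. Without the shallow libraries those of CPAMD8 (0.0557), RNU1-67P (0.0783), TUBB3 (0.0909), H2AC4 (0.067), TXNRD1 (0.0553) and ASNS (0.05415) ended. LMNA, not called, changed sign under library size only (-0.028), RLE (-0.012), DESeq2 (-0.010), voom (-0.076), the block (-0.006), without shallow libraries (-0.094), with the compared groups alone (-0.006, and -0.039 with the block), and without parental replicate 2 (-0.071) or 4 (-0.029) or LB1 replicate 2 (-0.078), with a range of -0.078 to 0.108 without single replicates. LMNB2, not called, changed sign without shallow libraries (-0.078) and without LB1 replicate 2 (-0.019), in a range of -0.078 to 0.167 over all alternatives. The causes were not tested. Depth limits the low genes most: 3 counts are 2.07 CPM in the shallowest LB1 library.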

Other observations

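Further called genes lay close together. On chromosome 7 between 10 and 20 Mb, 31 genes were tested and 20 had a mean over 4 CPM. Of those 20 genes 5 were called (25.0%), while the 3.92% is a share of all genes tested, at any level. The 5 were all higher in LB1: SCIN, an actin-severing protein, TSPAN13, a tetraspanin, AGR2, AHR and the noncoding LINC02889. TSPAN13 rose from 268 ± 36.1 to 383 ± 8.96 CPM (SD) and SCIN from 3.03 ± 0.962 to 7.25 ± 3.86 CPM. The median log2 difference of the window was 0.32 at 0 h, 0.13 at 16 h and 0.16 at 96 h. On chromosome 6 between 20 and 30 Mb, which holds the large histone cluster, the median over 91 genes was 0.31, and it was 0.13 at 16 h. Of these 91 genes, all with a mean over 4 CPM, 10 were higher and 1 lower (12.1% called). The 3.92% is a share of all genes tested, of which this window held 144, so the shares rest on unlike sets. The genes called higher include the histone genes H2AC4, H4C3, H2AC12, H2AC14, H2BC15 and H3C12. Without replicate 2 of LB1 only 1 of the 42 listed histone genes was called. These windows were chosen after their values were seen.

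Of 7 HOXC genes tested, HOXC8 and HOXC4 were called, both higher. HOXC4 had 0.426 ± 0.16 CPM in the parental line and 2.21 ± 0.479 CPM in LB1 (log2 difference 2.28, adjusted p = 0.013), and it overlaps HOXC5 and HOXC6 on the same strand, so their reads may be shared. Its call ended without replicate 3 of LB1 (adjusted p = 0.105), and with the compared groups alone and the replicate block (0.108). HOXC6, with 4.44 CPM in the parental line and 6.86 CPM in LB1, was not called (adjusted p = 0.299).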
